A study of Mus musculus with 8 samples.

Results

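The transcripts of TRiC, the cytosolic chaperonin also called CCT, were measured in B cells of mice that lack the miR-15/16 microRNAs and of controls. The 8 genes that encode its subunits, Tcp1, Cct2, Cct3, Cct4, Cct5, Cct6a, Cct7 and Cct8, were taken by symbol from the 24746 genes of the count table, and all 8 were among the 11363 genes whose counts were high enough to be tested. The tested mice were miR-15a/bfl/fl Vav-Cre (miR-15 dKO, below dKO), in which the clusters of miR-15a and miR-15b are flanked by loxP sites, and the controls were miR-15a/b+/+ Vav-Cre, 4 mice of each genotype aged 10 to 12 weeks. Both genotypes carried Vav-Cre, which drives Cre recombinase in blood-forming cells and all their descendants, so the deletion is not limited to B cells. Cells were sorted from bone marrow, and the sample labels call them B1a B cells whereas the text of the series names pro-B cells.

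TRiC is a barrel of stacked rings, and each ring holds 1 copy of each of the 8 subunits. It takes up newly made proteins that cannot fold on their own, actin and tubulin above all and several proteins with WD40 repeats, and releases them after ATP hydrolysis closes the chamber. Prefoldin hands unfolded chains to it, phosducin-like proteins assist in folding, and the related Hspd1 and Hspe1 proteins form the chaperonin of mitochondria. Growing and dividing cells, lymphocytes among them, build their cytoskeleton from its products.

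The microRNAs of the deleted clusters act by pairing their seed, bases 2 to 8 from the 5′ end, with sites in the 3′ UTRs of transcripts. Their mature forms are shown with the seed in capitals because the subunit transcripts were searched for its match (RefSeq sequences, GRCm38.p6; miR-15a and miR-16 on chromosome 14, miR-15b and a second copy of miR-16 on chromosome 3).
miR-15a-5p: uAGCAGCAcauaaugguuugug
miR-16-5p: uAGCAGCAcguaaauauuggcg
miR-15b-5p: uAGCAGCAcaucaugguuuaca
All of them carry the same seed. The longest annotated 3′ UTRs of 7 subunit genes (GENCODE M21, GRCm38), which run from 128 bases for Cct5 to 662 bases for Cct8, hold neither of the 7-base matches TGCTGCT and GCTGCTA. No 3′ UTR is annotated there for Cct6a. Either match occurs in 28.1% of the 10677 tested genes with an annotated 3′ UTR, and in 8.05% of the 3540 whose 3′ UTR is no longer than 662 bases. An absent match says only that these letters are not in these sequences.

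The libraries held 25565090 to 34954230 counts, and 12489 to 13430 genes were detected in each. The rows of the 4 microRNA genes had 0 counts in every library. Dleu2, the host transcript of the miR-15a/16-1 cluster, averaged 90.3 ± 16.3 CPM (the count relative to the library size, scaled by TMM) in dKO and 17.96 ± 5.95 CPM in controls (SD, n = 4 each), with no overlap. On the log2 scale the change was 2.33 ± 0.24 (SE; edgeR adjusted p = 0.00649). Its row is not limited to the deleted bases, so it separates the genotypes without measuring the deletion. For the cell type lists, a marker is given as at 1 CPM or more by its mean over the 8 libraries. This held for 6 of 6 pan-B markers, and their summed level was 38668 to 46406 CPM in dKO and 42343 to 54161 CPM in controls. All 10 B-1a markers reached 1 CPM, and their sum was 828 to 954 CPM in dKO and 299.96 to 651 CPM in controls, without overlap. The low control sums were those of control 2 and control 4, at 299.96 and 388.9 CPM, while control 1 and control 3 were both at 651 CPM. Taken singly, Cd5, Ctla4, Il5ra and Tnfrsf13b were without overlap, whereas Bhlhe41, Zbtb32, Plscr1, Zcwpw1, Rasgef1b and Ahr overlapped between the genotypes. The share of all genes with every dKO library above every control was not taken, so these genes have no background beside them. Of 9 pro-B markers only Vpreb1 had a mean of 1 CPM or more, and Kit was at 0 in all libraries. In single libraries Cd93 reached 1.34 CPM in control 3, and Sox4 1.55 CPM in control 2 and 2.23 CPM in control 4. The sum of the pro-B markers was 2.37 to 3.44 CPM in dKO and 1.68 to 6.16 CPM in controls. Follicular B-2 markers (9 of 9 found at 1 CPM or more) summed to 1172 to 1599 CPM in dKO and 1161 to 2860 CPM in controls, and control 2 and control 4 stood apart from the other libraries with 2860 and 2509 CPM. Plasma cell markers (4 of 6 at 1 CPM or more) summed to 125 to 213 CPM in dKO and 170.4 to 206 CPM in controls, T cell markers (5 of 6) to 136 to 247 CPM in dKO and 98.9 to 241 CPM in controls, and NK cell markers (5 of 7) to 62.1 to 174 CPM in dKO and 14.3 to 169 CPM in controls. Myeloid markers (5 of 8) summed to 492 to 2188 CPM in dKO and 724 to 5187 CPM in controls, and erythroid markers (1 of 7) to 0.297 to 8.79 CPM in dKO and 0.387 to 6.41 CPM in controls, with the globin genes Hba-a1, Hba-a2, Hbb-bs and Hbb-bt at 0. The part of these differences between libraries in the TRiC values was not tested, beyond the values without control 2 and control 4 given below.

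All 8 subunit transcripts had a lower mean in dKO than in control cells, by 8.67% for Cct2 to 32.4% for Cct4, and none passed the test at an adjusted p under 0.05. The median log2 fold change of the 8 was -0.35, against -0.02 over all genes tested. Negative values were frequent among abundant genes. Of all genes tested 52.3% had a log2 fold change below 0, and of the 2498 with a mean of at least 50 CPM, a level all 8 subunits exceed and which was set after their values were seen, 66.3% did, with a median of -0.08. In the same fit 3 genes were called lower (0.0264% of those tested) and 7 higher (0.0616%). At an unadjusted p under 0.05, 4 of the 8 subunits were lower, Cct4, Cct5, Cct7 and Cct8, where 4.84% of all genes were. This count was 1 without dKO 1 or without dKO 3, 2 without control 4, 6 without control 2 and 7 with limma voom. Over all genes the count, in either direction, was 1229 of 11363 with all libraries in edgeR. It was 848 of 11500 without dKO 1, 865 of 11560 without dKO 3 and 923 of 11505 without control 4. Without control 2 it was 1518 of 11574, and with voom 2135 of 11363. In bulk samples a lower level in each cell and fewer cells of a kind that expresses much of a gene cannot be told apart. The labels do not pair the mice, and the p-values set the genotype difference against the spread between the 4 libraries of each genotype.

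**Figure D1:**
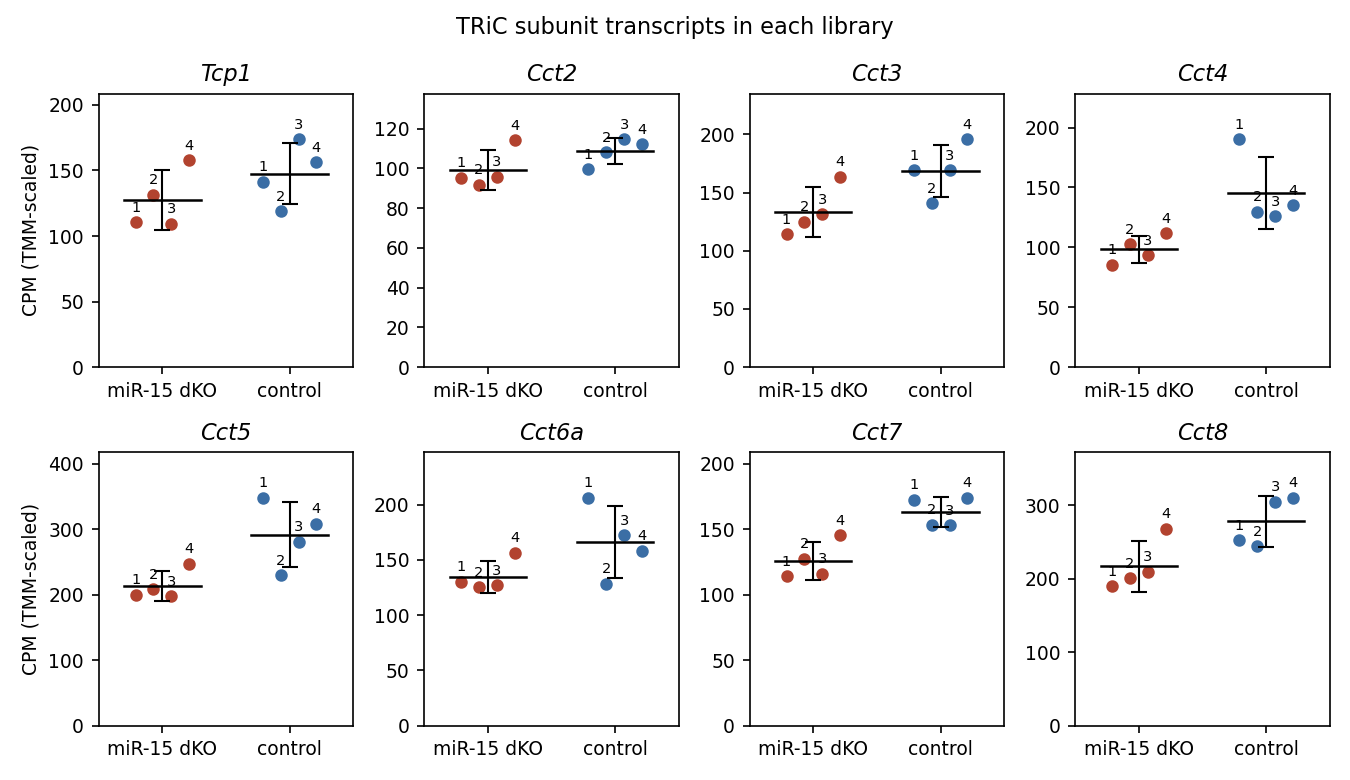
Level of each TRiC subunit transcript in CPM (TMM-scaled, linear axis from 0) in the 4 miR-15 dKO libraries (left, red) and the 4 control libraries (right, blue); digits are library numbers, horizontal bars the group means and error bars the SD. Only Cct4 and Cct7 have all dKO points below all control points, and dKO 4 is the highest dKO library in each of the 8 panels.

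The subunits are described by how they use ATP, which in yeast divides the ring into a side that binds it tightly (the counterparts of Tcp1, Cct2, Cct4 and Cct5) and a side that binds it weakly (those of Cct3, Cct6a, Cct7 and Cct8). On the tightly binding side, Cct4, which encodes the delta subunit and whose human form can build a ring by itself, had 85.4, 103, 93.2 and 112 CPM in dKO 1 to 4 and 190.4, 129.8, 126 and 135 CPM in control 1 to 4. The dKO libraries all lay below the controls, which was the case for 2.96% of all genes tested, and control 1 lay far above the other controls. The log2 fold change was -0.56 ± 0.17 (SE; edgeR adjusted p = 0.211), and -0.40 without control 1 (adjusted p = 0.219).

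Cct5, the epsilon subunit, whose human form likewise builds rings by itself and is mutated in a hereditary sensory neuropathy, had 199.9, 209, 198 and 247 CPM in dKO and 349, 229.6, 281 and 308 CPM in controls. The groups overlapped through dKO 4, which exceeded control 2. The log2 fold change was -0.45 ± 0.16 (SE; edgeR adjusted p = 0.327).

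Tcp1, the alpha subunit, named after the mouse t-complex in which it lies, had 111, 131, 109 and 158 CPM in dKO and 141, 119, 174 and 156 CPM in controls. The groups were interleaved, with dKO 4 above 3 of the controls. Its log2 fold change was -0.21 ± 0.17 (SE; edgeR adjusted p = 0.730), and it ran from -0.34 without dKO 4 to -0.12 without control 3. Cct2, the beta subunit, which in human cells also serves as a receptor for clearing protein aggregates by autophagy, had 95.3, 91.8, 95.8 and 114 CPM in dKO and 99.7, 108, 115 and 112 CPM in controls. It had the narrowest spread of the 8, and dKO 4 lay among the controls while the other dKO libraries lay below them. Its log2 fold change was -0.13 ± 0.13 (SE; edgeR adjusted p = 0.801), and -0.21 without dKO 4.

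On the weakly binding side, Cct7, the eta subunit, had 114, 127, 116 and 146 CPM in dKO and 172, 153, 153 and 174 CPM in controls. This was the other subunit without overlap between the groups. Its log2 fold change was -0.38 ± 0.14 (SE; edgeR adjusted p = 0.331). Cct8, the theta subunit, had 189.6, 201, 209.7 and 268 CPM in dKO and 253, 244, 305 and 311 CPM in controls. Here dKO 4 lay above control 1 and control 2, and the other 3 dKO libraries lay below every control. Its log2 fold change was -0.36 ± 0.16 (SE; edgeR adjusted p = 0.456).

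Cct3, the gamma subunit, had 114, 125, 131 and 164 CPM in dKO and 169, 141, 169 and 196 CPM in controls. The overlap again came from dKO 4 and control 2. Its log2 fold change was -0.34 ± 0.16 (SE; edgeR adjusted p = 0.487). Cct6a, the zeta subunit, had 130.4, 125, 127 and 157 CPM in dKO and 206, 128, 172 and 158 CPM in controls. Control 2 lay within the dKO range, and dKO 4 was close to control 4. Its log2 fold change was -0.30 ± 0.17 (SE; edgeR adjusted p = 0.564), and -0.17 without control 1 (adjusted p = 0.700).

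The libraries were ordered alike for many of the genes, more so among dKO than among controls. Among the dKO libraries dKO 4 was the highest for 8 of the 8 genes, and among the controls control 2 was the lowest for 5 and control 1 the highest for 3. The level in dKO 4 exceeded that in control 2 for 6 genes. This order holds for the TMM-scaled levels. With library totals alone, control 1 was the lowest control for Tcp1, Cct2, Cct3, Cct7 and Cct8, and control 2 for Cct5 and Cct6a. On that scale dKO 4 exceeded control 2 for Tcp1, Cct3 and Cct6a only, and dKO 2 was the highest dKO library for Cct4. Summed over the 8 genes, the level was 1039.6, 1113, 1080.1 and 1365 CPM in dKO and 1581, 1253, 1495 and 1551 CPM in controls. The sum was thus higher in dKO 4 than in control 2, and the means were 1149.6 ± 147 CPM in dKO and 1469.9 ± 149 CPM in controls (SD, n = 4 each).

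As a share of each library's total counts, with no scaling factor, the 8 genes took 0.104%, 0.117%, 0.113% and 0.131% in dKO and 0.134%, 0.137%, 0.152% and 0.154% in controls. On this scale the groups did not overlap. The means were 0.117% ± 0.0110 in dKO and 0.144% ± 0.0102 in controls (SD, n = 4 each). The scaling factors, which run from 0.848 for control 1 to 1.09 for control 2, therefore decide whether the sums overlap. With library totals alone 3 subunits were without overlap, Cct5 beside Cct4 and Cct7, where 2.2% of all genes tested had all dKO libraries below all controls on the same scale, and TMM gave 2 subunits.

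Per length, the highest and the lowest subunit differed by more than any subunit did between the genotypes. On the scale of CPM per kilobase of the principal annotated transcript (GENCODE M21), Cct5 was the highest with 115 ± 12.5 in dKO and 158 ± 27.0 in controls, followed by Cct8 with 90.7 ± 14.6 in dKO and 116 ± 14.4 in controls, and Cct3 with 67.5 ± 10.8 in dKO and 85.3 ± 11.4 in controls (SD, n = 4 each). Each of these exceeded the next in 8 of 8 libraries, and Cct3 exceeded Cct6a in 8 of 8. The next levels were those of Cct6a with 55.0 ± 5.94 in dKO and 67.8 ± 13.2 in controls, Cct7 with 51.5 ± 5.91 in dKO and 66.8 ± 4.76 in controls, Tcp1 with 52.1 ± 9.31 in dKO and 60.4 ± 9.55 in controls, and Cct2 with 50.7 ± 5.15 in dKO and 55.5 ± 3.38 in controls. Neighbours among these 4 were in that order in only 5 of 8 libraries each, so no neighbouring pair of them differed beyond its spread. Cct4, with 39.6 ± 4.64 in dKO and 58.5 ± 12.2 in controls, had the lowest mean in dKO, while in controls Cct2 did. Cct4 lay below Cct2 in 7 of 8 libraries, all but control 1. The ratio of the highest to the lowest mean was 2.91 in dKO and 2.84 in controls. The assembled ring holds the subunit proteins in equal numbers, but these are transcript levels and protein was not measured. The per-length values also rest on a single annotated transcript per gene, and other lengths were not tried. For Cct6a the longest transcript was used, since the annotation there has no coding one.

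**Figure D2:**
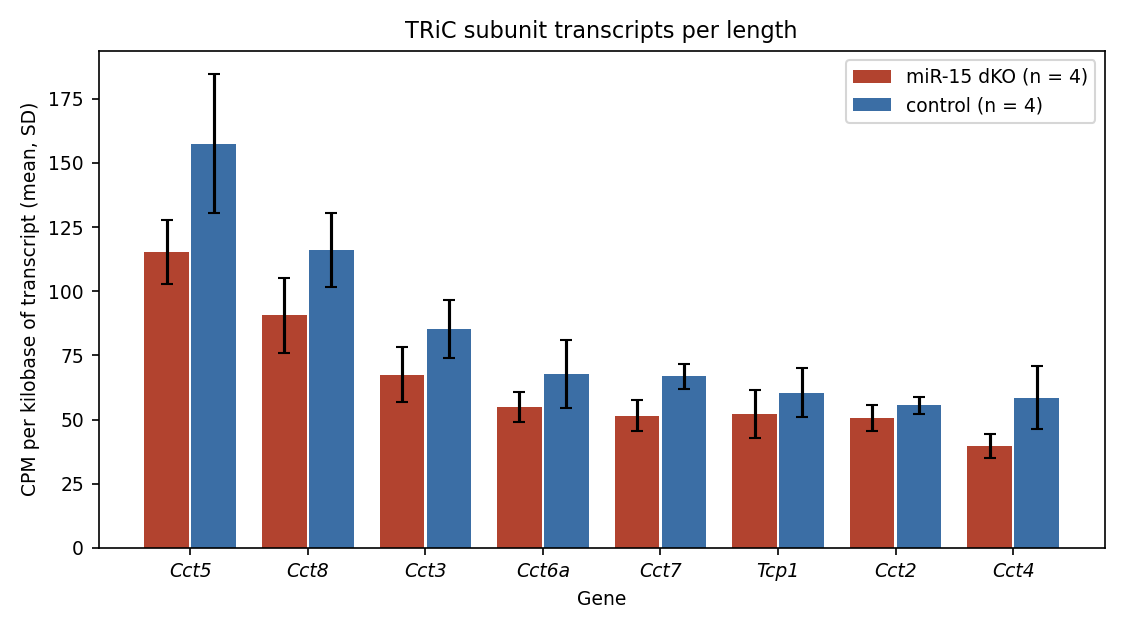
Mean level of each TRiC subunit transcript in CPM per kilobase of transcript (linear axis from 0), with miR-15 dKO (red) left of control (blue) and the SD as error bars, n = 4 each. Cct5 is the highest and Cct4 the lowest in dKO, and the order from Cct5 through Cct8 to Cct3 is the same in both genotypes.

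Within the sum of the per-length levels of the 8 subunits, Cct4 took 7.27%, 8.20%, 7.64% and 7.27% in dKO and 10.7%, 9.20%, 7.49% and 7.71% in controls. Its share overlapped between the groups, and control 1 and control 2 held the high values. Cct2 took 10.3%, 9.28%, 9.96% and 9.41% in dKO and 7.07%, 9.71%, 8.64% and 8.11% in controls, where only control 2 lay within the dKO range. These shares do not depend on the scaling of the libraries.

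Around the chaperonin, 38 genes of 8 further lists were tested, and none was called in this fit. The 2 genes of the mitochondrial chaperonin had values as negative as those of TRiC. Hspd1, which encodes its barrel, had 183, 163, 168 and 229 CPM in dKO and 222, 233, 322 and 278 CPM in controls, with only dKO 4 reaching into the control range. The log2 fold change was -0.50 ± 0.17 (SE; edgeR adjusted p = 0.292). Hspe1, its lid, had 159, 145, 139 and 226 CPM in dKO and 380.5, 155, 263 and 212 CPM in controls. The groups overlapped, and control 1 was the highest library. The log2 fold change was -0.60 ± 0.26 (SE; edgeR adjusted p = 0.442), and -0.32 without control 1 (adjusted p = 0.601).

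Of the 6 prefoldin subunits, all had a log2 fold change below 0, with a median of -0.20, and none had an unadjusted p under 0.05. Pfdn4 was at -0.30 ± 0.21, Pfdn5 at -0.28 ± 0.19 and Vbp1 at -0.25 ± 0.20 (SE; edgeR adjusted p = 0.677, 0.669 and 0.724), and control 1 was the highest library for all 3. Without control 1 they were at -0.08, -0.10 and -0.06. Of the 3 phosducin-like cofactors tested, Pdcl and Txndc9 were negative and Pdcl3 positive, with a median of -0.04 and a range from -0.16 to 0.12. Pdcl2 had 0 counts. Of the 2 heat shock factors, which switch on chaperone genes under stress, Hsf1 was at -0.28 ± 0.25 and Hsf2, at under 1 CPM, at 0.21 ± 0.63 (SE; edgeR adjusted p = 0.767 and 0.946).

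The transcripts of the proteins that TRiC folds were mixed in direction. Of 11 tubulin genes tested 6 were positive and 5 negative, with a median log2 fold change of 0.02, and none had an unadjusted p under 0.05. Tubb6 was at 0.42 ± 0.34, Tubb5 at 0.23 ± 0.18 and Tuba1c at 0.22 ± 0.27 (SE; edgeR adjusted p = 0.735, 0.732 and 0.843). Tubb6, a beta-tubulin, had 156, 135, 168 and 239.9 CPM in dKO and 158, 59.3, 204 and 102 CPM in controls, and its low controls were control 2 and control 4. Without these its log2 fold change was -0.05.

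Actb, which encodes beta-actin, had 12889, 8526, 11128 and 7687 CPM in dKO and 5681, 5280.0, 5026 and 11263 CPM in controls. Control 4 lay within the dKO range, and the other controls lay below every dKO library. The log2 fold change was 0.56 ± 0.29 (SE; edgeR adjusted p = 0.536), and 0.92 ± 0.24 without control 4 (adjusted p = 0.273). Actg1, gamma-actin, was at 0.14 ± 0.17 (SE; adjusted p = 0.840). Of 8 tested genes of the WD40 list 6 were negative and 2 positive, with a median of -0.09. These include Hdac3, a histone deacetylase without WD40 repeats, at -0.11. The 3 with the smallest p were Gnb2 at 0.20 ± 0.17, Gnb4, at about 1 CPM, at -0.90 ± 0.87, and Mlst8 at -0.22 ± 0.25 (SE; edgeR adjusted p = 0.751, 0.790 and 0.8287). The first 2 are beta subunits of G proteins, and Mlst8 is a subunit of the mTOR complexes.

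The relatives of the subunits were scarce or spread. Cct6b, a paralog of Cct6a expressed mainly in testis in mice, averaged 1.23 ± 0.680 CPM in dKO and 0.552 ± 0.273 CPM in controls (SD, n = 4 each), a change of 1.16 ± 0.60 on the log2 scale (SE; edgeR adjusted p = 0.541). Bbs12, at under 1 CPM, was at 0.64 ± 0.61 and Mkks at 0.07 ± 0.26 (SE; edgeR adjusted p = 0.788 and 0.963). Both encode chaperonin-like proteins that help assemble the BBSome, a complex of the primary cilium. Bbs10, the third of this kind, was at -0.11, and Cct8l1 had 0 counts.

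**Figure D3:**
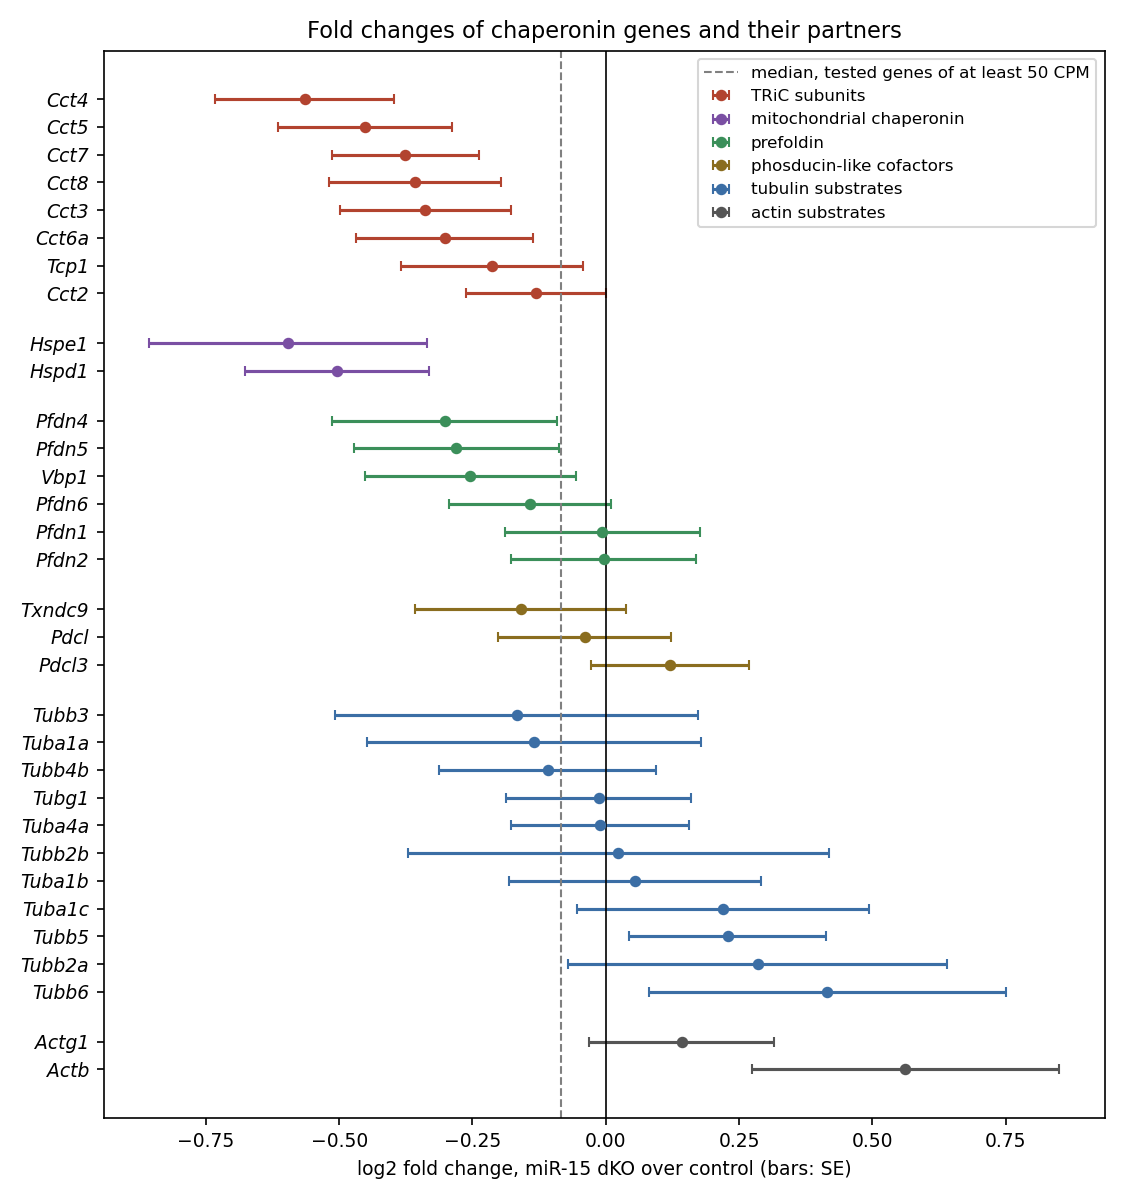
Log2 fold change of miR-15 dKO over control (points) with its SE (bars) for the TRiC subunits and for the tested genes of the mitochondrial chaperonin, prefoldin, phosducin-like, tubulin and actin lists; the dashed line is the median of tested genes of at least 50 CPM. The TRiC points lie between -0.56 and -0.13, the tubulin points on both sides of 0, and Actb at 0.56.

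Other genes followed the libraries in the same way. For each of 7324 named genes with a mean of at least 5 CPM, the log2 CPM values were centred over the 8 libraries and set against the mean centred profile of the 8 subunits, and the likeness was the root mean square of the differences (log2 units). The 8 nearest were Tmed5 at 0.0418, Ube2f at 0.0512, Tfg at 0.0636, Gfer at 0.0717, Trp53rkb at 0.0731, Psmc4 at 0.0759, Wars2 at 0.0787 and Eif2s2 at 0.0801, where the median gene was at 0.345. Each subunit, measured against the mean of the other 7, lay between 0.0791 for Cct7 and 0.213 for Cct4. The mean profile of the 8 had an SD of 0.233 over the libraries. A gene without any variation would lie a little below that value, so Cct4 was hardly nearer than such a gene. Cct2, at 0.178, was only somewhat nearer.

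The nearest genes come from several processes. Tmed5 and Tfg act in traffic between the endoplasmic reticulum and the Golgi, Ube2f attaches NEDD8 to proteins, Psmc4 is an ATPase of the proteasome, Eif2s2 is a subunit of a translation initiation factor, and Gfer and Wars2 work in mitochondria, in protein oxidation and in charging tRNA with tryptophan. Psmc4 averaged 154 ± 14.4 CPM in dKO and 192 ± 18.6 CPM in controls, and Eif2s2 108 ± 13.8 CPM in dKO and 129 ± 20.9 CPM in controls (SD, n = 4 each). Since the profile includes the genotype difference, all 8 genes have negative fold changes by their choice, from -0.38 for Wars2 to -0.27 for Eif2s2. The list is not firm: leaving out 1 library kept 2 to 6 of the 8 genes, and leaving out control 2 and control 4 kept 3.

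**Figure D4:**
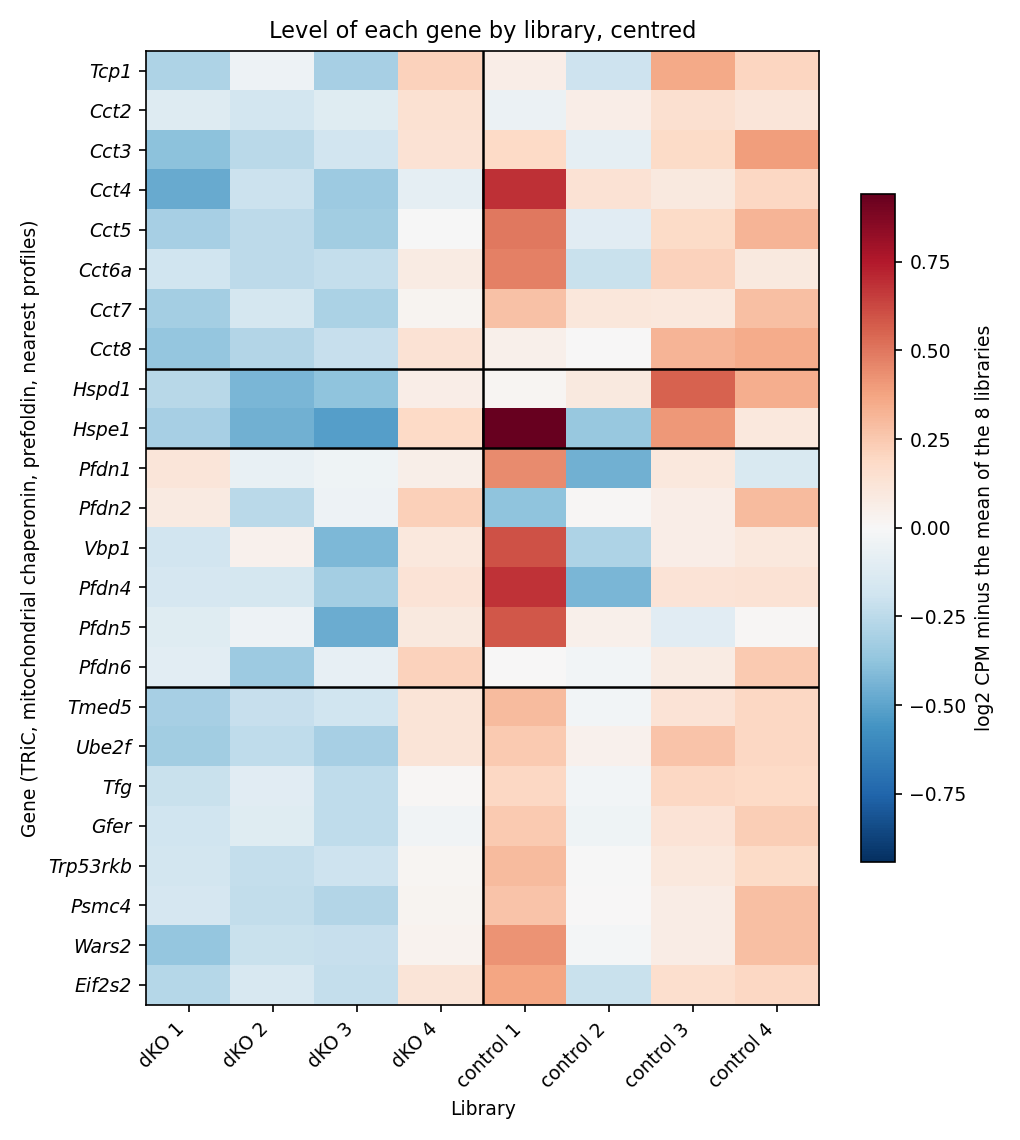
Log2 CPM of each gene minus its mean over the 8 libraries (colour, blue below and red above the mean), with dKO libraries left and control libraries right of the vertical line; horizontal lines part the TRiC subunits, the mitochondrial chaperonin, prefoldin and the 8 genes of nearest profile. In the TRiC rows dKO 1, 2 and 3 are blue throughout, dKO 4 is near or above the mean, and control 1 is most red for Cct4, at 0.68.

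The stretches upstream of 2 subunit genes are shown as examples of the CCAAT box. It was searched because many of the subunits had a similar order of levels over the libraries. Cct2 and Cct4 lay farthest from the mean profile of the other 7, at 0.178 and 0.213 (root mean square, log2 units). The RefSeq table (GRCm38.p6) gave a promoter for 7 of the 8 genes, Cct4 being the one without, and the 250 bases before each start were searched on both strands. CCAAT was found in 4 of the 7, Tcp1, Cct3, Cct6a and Cct7, where 37.3% of the promoters of tested genes hold it. These lay at 0.152, 0.0896, 0.136 and 0.0791 from the mean profile of the other subunits. Cct5, Cct8 and Cct2, without a match, lay at 0.110, 0.121 and 0.178. A link between the box and the levels was not tested. Cct3 and Cct6a hold 2 matches, Cct7 3 and Tcp1 1; the windows of Tcp1 and Cct6a are not printed, since they lie within annotated exons. The GC box GGGCGG was found in 7 of 7, against 58.9% of the promoters of tested genes. In the 2 sequences, printed from the 5′ end on the strand of the gene and without annotated exons, the capitals mark the CCAAT box read on the other strand.
Cct3, chr3:88297000-88297115, plus strand: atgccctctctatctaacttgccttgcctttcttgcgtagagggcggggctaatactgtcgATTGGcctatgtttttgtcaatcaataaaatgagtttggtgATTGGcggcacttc
Cct7, chr6:85451284-85451504, plus strand: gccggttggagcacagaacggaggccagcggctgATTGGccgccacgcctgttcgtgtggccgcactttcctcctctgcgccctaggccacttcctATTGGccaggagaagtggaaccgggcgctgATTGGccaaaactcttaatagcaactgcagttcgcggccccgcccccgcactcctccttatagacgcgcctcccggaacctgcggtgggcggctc
The Cct3 stretch holds 2 matches and the Cct7 stretch 3. A sequence match is not a bound site. The CRE core TGACG was found in 1 of the 7, Cct6a (28.3% of the promoters of tested genes), and the ETS motif CCGGAAG in 2, Cct2 and Cct8 (15.1%). The heat shock element GAANNTTC (5.14%) and the E-box CACGTG (8.65%) were found in none of these windows, which says nothing of the factors that bind them. The motifs were chosen with the expression values known.

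Under 19 other ways of processing the counts, the 8 fold changes stayed below 0 and no subunit was called. The values nearest to the threshold came from limma voom with quality weights, where 0.871% of all genes were called lower and the adjusted p was 0.0579 for Cct4. With DESeq2, which called 1.06% of all genes lower, it was 0.0842. Of the wider lists only Hspd1 was called under any of them, by voom (log2 fold change -0.60, adjusted p = 0.0493, and 0.146 by DESeq2). Without control 2 and control 4, the libraries rich in follicular B-2 markers, the median over the 8 subunits was -0.36, with Cct4 at -0.68 (adjusted p = 0.151).

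**Figure D5:**
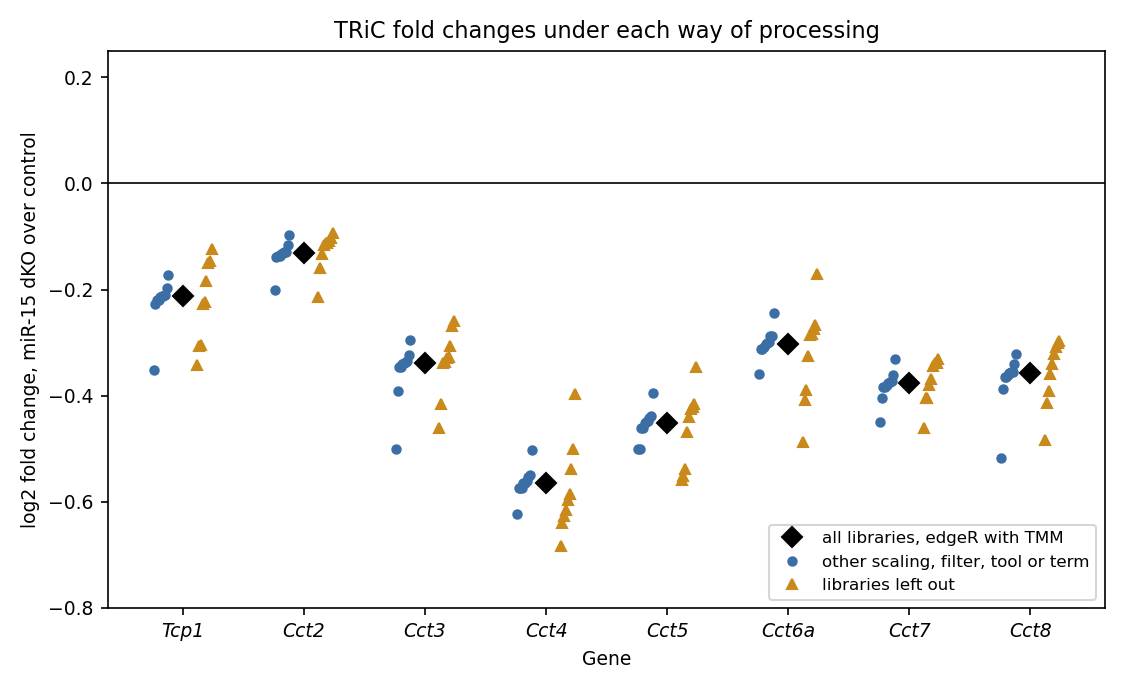
Log2 fold change (miR-15 dKO over control) of each TRiC subunit with all libraries in edgeR with TMM scaling (black diamond), with another scaling, filter, tool or term (blue) and with libraries left out (orange triangles). All points lie below 0, from -0.68 for Cct4 to -0.09 for Cct2.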

How the data were processed

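Per the labels' protocols, SMART-seq amplification was followed by a SMARTER library kit. The authors deposited raw counts per gene; per the submitters' processing notes they used Trimmomatic, STAR and featureCounts on GRCm39. The annotation, strand setting and tool versions were not given in the sources used here. Columns were assigned by the codes in the sample descriptions, and 3 summary columns were not used. Among counts below 20, 72.7% to 77.3% are even, as when both mates are counted.

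After filterByExpr and TMM scaling, genes were tested in edgeR 4.0.16 (robust quasi-likelihood F test, genotype as the only term, Benjamini-Hochberg over 11363 genes) in R 4.3.3. Fold changes are dKO over control, and the SE is the log2 fold change divided by the root of F. DESeq2 1.42.0, limma 3.58.1 (voom), other scalings and filters, halved counts, a sex term (sex read from Ddx3y), a replicate block and left-out libraries were alternatives. Named were the 8 subunits, up to 3 genes of smallest p per list, both actins and the 8 nearest profiles; other names were added after their values were seen. The subunits and lists were chosen with earlier results of these data known. Libraries of 1 group differed by a chi-square per degree of freedom of 31.3 to 321.3, so none was a duplicate of another in its group. Pairs across the groups were not compared in this way. The tools were tested on simulated data, where DESeq2 made false calls more often than edgeR and voom and exceeded the limit first set for all of them. It was kept as an alternative, and its counts of calls are the more liberal.

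Reads of genes that overlap a subunit gene on the other strand (Mrpl18 and Acat3 for Tcp1, Psph for Cct6a, Pradc1 for Cct7, Usp16 for Cct8; GENCODE M21) cannot be told apart without the strand setting. Of 15 RefSeq pseudogenes of the subunits, 0 have a row in the table used, so their reads may be counted elsewhere.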

Additional observations from a re-analysis of the deposited data

Results flagged for a closer look

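Of 76 groups of 4 libraries checked for a library far from the other 3, 5 were picked out, and chance alone gives about 5%. Cct4 was at 190.4 CPM in control 1, where the other controls were at 126 to 135 CPM. Cct6a was at 157 CPM in dKO 4, where the other dKO libraries were at 125 to 130.4 CPM. Tuba1c, an alpha-tubulin, was at 186 CPM in dKO 4, where the other dKO libraries were at 123 to 128 CPM. Actb was at 11263 CPM in control 4, where the other controls were at 5026 to 5681 CPM. Tfg was at 34.3 CPM in control 2, below the other controls.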

How the results depend on the processing

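In all 19 alternatives 0 subunits were called and all 8 fold changes were negative, with a median from -0.47 (voom) to -0.29 (without dKO 1). The count of genes called over the whole table moved more. It was 10 with edgeR, 322 with DESeq2, 257 with voom, 40 with no filter, 59 without control 2 and control 4, and 17 with library totals and no scaling factors (15 higher and 2 lower, where TMM gave 7 and 3), an alternative added after seeing the data. Leaving out 1 library gave 4 to 98 genes: 98 when control 1 was dropped, 30 for control 3, 18 for control 2 and 4 for each of dKO 2, 3 and 4. The causes were not tested. Among the wider lists 1 gene, Hspd1, was called with voom, and 0 otherwise. Leaving out 1 library kept 2 to 6 of the 8 nearest genes.

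Of the named genes of the wider lists, 7 took the other sign in at least 1 alternative. With voom Pdcl was at 0.0048 and Actg1 at -0.0049. With control 2 and control 4 left out, Mkks was at -0.28, Tubb6 at -0.049 and Hsf1 at 0.012. With 1 library left out at a time, Pdcl ran from -0.13 to 0.017 (above 0 when control 2 or control 3 was left out, 0.0026 for the second), Mkks from -0.099 to 0.41 (below 0 when control 2, control 4 or dKO 2 was left out, -0.016 and -0.0093 for the last 2), Tuba1c from -0.012 (control 2 left out) to 0.36 and Hsf2 from -0.049 (control 4 left out) to 0.76. The labels do not pair the mice by replicate number. Of 4 same-number pairs 1 correlated above 0.1 (r from -0.0709 to 0.149), and dKO 3 with control 2 reached 0.175. These values were centred within each genotype, so they cannot decide whether mice were paired. With the replicate block the subunits' median was -0.35, 0 were called and 5 had an unadjusted p under 0.05, where 1203 of 11363 genes had. Over the single libraries left out, the subunits with an unadjusted p under 0.05 numbered 1 to 6, and all such genes, in either direction, 848 to 1532. With 4 mice a genotype the SEs of the subunits, 0.13 to 0.17, are as large as the smaller changes.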
